A study of Mus musculus with 10 samples.

Results

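Expression of the nuclear genes for the subunits of oxidative phosphorylation was examined in whole blood of 10 mice, 5 prone (AIWG-P) and 5 resistant (AIWG-R) to weight gain on the antipsychotic olanzapine. Members were taken by symbol: genes beginning with *Ndufa*, *Ndufb*, *Ndufc*, *Ndufs* or *Ndufv* and a digit, the 4 *Sdh* genes, *Uqcr*, *Cox* with a digit between 4 and 8, and *Atp5*. The rule found 75 of the 10431 genes in the table, and all 75 were above 1 in at least 5 of the 10 mice, the filter on low values. By name, 36 belong to complex I, 4 to complex II, 8 to complex III, 12 to complex IV and 15 to complex V. *Atp5sl* matched by symbol only, since RefSeq lists it as *Dmac2*, a gene for an assembly factor, and *Ndufa4* carries a complex I name although its product is now counted as a complex IV subunit.

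The AIWG-P mice were P1, P3, P5, P7 and P8, and the AIWG-R mice were R1, R2, R4, R8 and R9. All 10 were females of the strain labelled C57BL6, given as C57BL/6J in the study's methods, bought at 9 weeks of age and housed singly, and in all of them the labelled treatment was a diet with 45% of its energy from fat that contained olanzapine, given for 14 days. The cohorts were drawn from the 2 ends of weight gain on this diet, so no mouse without olanzapine was compared here. The study's methods place the sequenced blood at baseline, before the diet, while nothing in the labels fixes the time of sampling. A number in the label of each mouse is 3 in P7, P8 and R1 and 4 in the other mice, and no source used here says what it stands for.

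Oxidative phosphorylation makes most of a cell's ATP in the inner mitochondrial membrane. Complexes I and II pass electrons from NADH and succinate to ubiquinone, complex III passes them on to cytochrome c, and complex IV passes them to oxygen, while complex V, the ATP synthase, uses the proton gradient made by complexes I, III and IV. Most subunits are encoded in the nucleus and a small set in mitochondrial DNA, so the nuclear genes studied here give only part of each complex except complex II. In blood, leukocytes and platelets hold mitochondria, reticulocytes clear theirs as they mature, and mature red cells hold none.

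Globin genes made up 78.2 to 87.5% of all signal in AIWG-P mice and 75.0 to 83.2% in AIWG-R mice, highest in P8 and lowest in R9. No measured marker of red cells, neutrophils, monocytes, B cells, T cells, NK cells or platelets was at 0 in any mouse. The values had been normalized by the authors, and their medians lay between 143 and 146 in all 10 mice. Recovered as multiples of the smallest step in each mouse, they summed to between 24447563 and 32293924 in AIWG-P and between 23810098 and 28093845 in AIWG-R. Values are given below in the order of the mice above, and they are not per length, so levels are compared between cohorts and not between genes. In bulk blood, fewer cells of a type and less RNA per cell cannot be told apart.

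Of the 75 genes, 19 were higher in AIWG-P at an unadjusted limma *p* under 0.05 and a log2 fold change above 0.32, the study's fold threshold, and 0 were lower. Among all 10429 genes tested, 4.06% were higher and 3.23% lower by the same rule. The 19 were 6 of complex I, 3 of complex III, 6 of complex IV and 4 of complex V, and none of complex II. The log2 fold change was positive in 70 of the 75, against 48.4% of all genes, with a median of 0.24 and a range of -0.18 to 0.77, while the median of all genes was -0.01. The 26 members with a *p* under 0.05 were all positive, and 6.73% of all genes were positive at that *p*. After Benjamini-Hochberg adjustment over all genes in limma, 0 members and 0 genes of the table had an adjusted *p* under 0.05, and the smallest adjusted *p* among members was 0.325. At an unadjusted *p* under 0.05 the table held 1340 genes. Among the 19, the exact permutation test over the 10 mice gave *Ndufa4*, *Ndufa11*, *Cox8a* and *Atp5h* a *p* above 0.05.

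**Figure D1:**
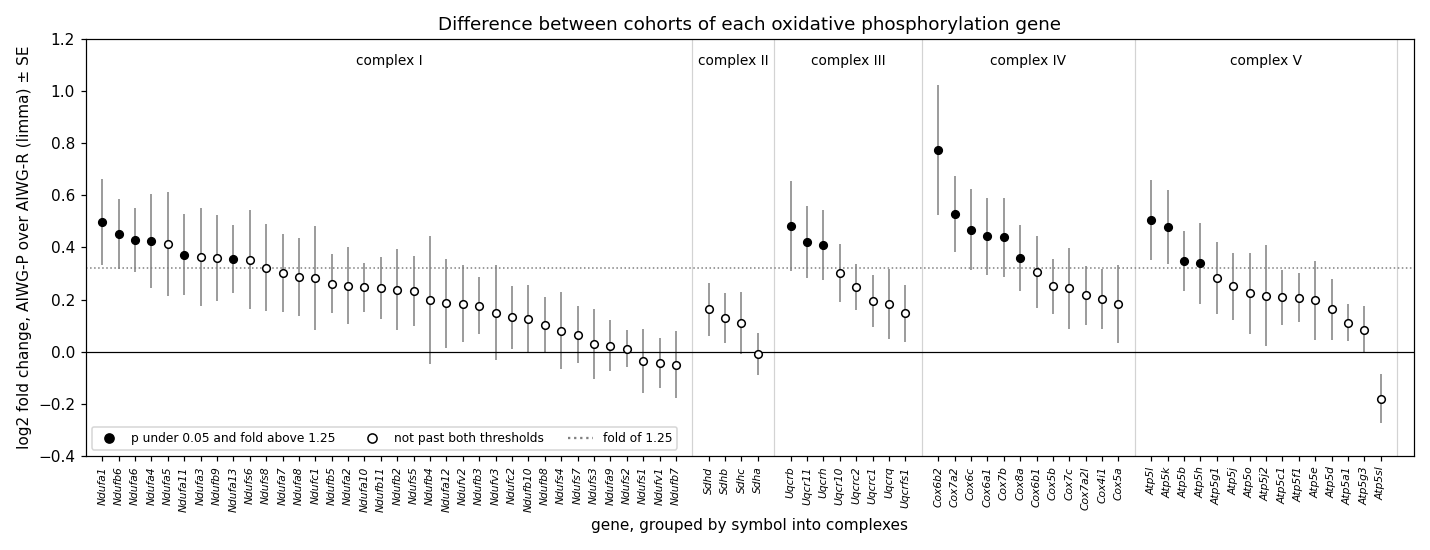
Log2 fold change of each of the 75 genes, AIWG-P over AIWG-R, grouped by complex along the x axis, with bars for the SE of the limma fit. Filled points mark the 19 genes past both thresholds, the dotted line marks a log2 fold change of 0.32, and all 12 complex IV genes lie above 0. With values rescaled to the sum without globins, 17 genes lie below 0.

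These counts rested on the scaling and on individual mice. When values were rescaled to the sum without globin genes, the median of all genes moved to -0.15, the calls over all genes became 162 higher and 1212 lower in place of 423 and 337, and 7 of the 19 members (*Ndufa1*, *Uqcrb*, *Cox6b2*, *Cox7a2*, *Cox6c*, *Atp5l* and *Atp5k*) stayed higher while *Atp5sl* was called lower. Of the 75, 58 were then positive and their median was 0.10, which is 0.25 above that of all genes, as it was with the deposited scaling. Without P8, 11 members were higher, 10 of them among the 19, beside 2.71% of all genes, and the median was 0.15. Without R9, 14 were higher beside 2.54% of all genes. Without both, the 5 that stayed higher were *Ndufb6*, *Uqcrb*, *Cox6b2*, *Cox7a2* and *Atp5k*, beside 1.71% of all genes, with a median of 0.12. P8 and R9 were also the mice with the highest and the lowest globin share, and how this bears on the calls was not tested. The label number was not balanced between the cohorts, and with it as a covariate over all 10 mice 14 of the 19 stayed higher, beside 3.21% of all genes, with a median of the members of 0.19. The calls of *Ndufa4* (0.37), *Ndufa11* (0.29), *Ndufa13* (0.31), *Cox8a* (0.31) and *Atp5h* (0.30) ended in that fit. Among the 7 mice whose label number was 4, a choice made after seeing the data, 14 were higher, 11 of them among the 19, beside 3.72% of all genes.

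P8 stood apart within its cohort. It had the highest value of all 10 mice in 64 of the 75 genes, and its median deviation from the AIWG-R mean was 0.61 on the log2 scale. The same median was 0.28 in P1, 0.23 in P7, 0.05 in P3 and 0.05 in P5, and it ran from -0.10 in R9 to 0.09 in R8. P8 exceeded every AIWG-R mouse in 68 genes, P1 in 45, P7 in 39, P3 in 14 and P5 in 13. For the 19 genes higher in AIWG-P, P8 and P1 exceeded every AIWG-R mouse in all 19, P7 in 8, P3 in 7 and P5 in 5. Within AIWG-R, R8 was the highest mouse in 12 of the 19 and R9 the lowest in 14. The mean log2 value over the 75 genes had an SD of 0.22 among AIWG-P mice and 0.07 among AIWG-R mice. The members made up 0.544, 0.509, 0.519, 0.575 and 0.621% of the summed values without globins in the AIWG-P mice, against 0.507, 0.509, 0.508, 0.512 and 0.507% in the AIWG-R mice. P1, P7 and P8 thus lay clearly above the narrow AIWG-R range, P5 just above it, and P3 at its level.

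**Figure D2:**
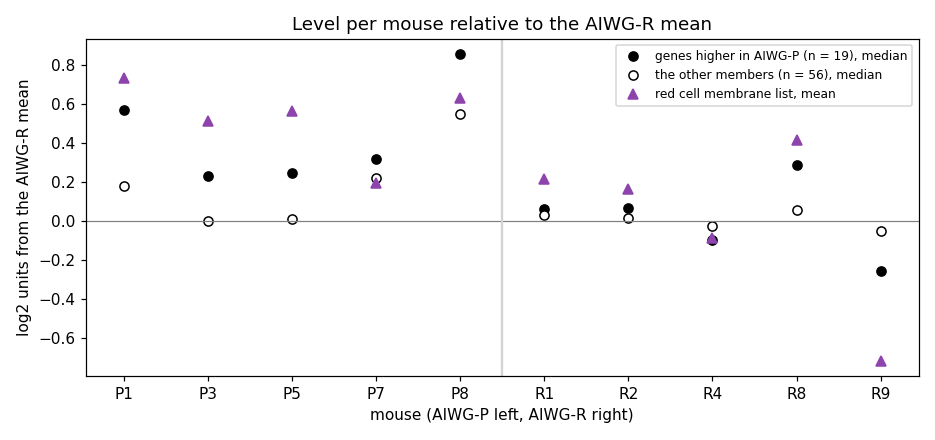
Median over genes of the log2 difference from the AIWG-R mean in each mouse, for the 19 genes higher in AIWG-P (filled) and the other 56 (open), with the mean of the red cell membrane list (triangles). P8 is the highest mouse for both groups of genes, R9 is the lowest for all 3 measures, and P1 has the highest red cell list mean.

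Promoter sequences of a few of the 19 genes are printed to show the sites that nuclear respiratory genes are known for. Nuclear respiratory factor 1 (NRF1) binds GC-rich palindromes, and the ETS factor GABP (also NRF2) binds a GGAA core. RefSeq gave a promoter for 64 of the 75 genes on build GRCm38.p6, and the 250 bases before each start were searched on both strands. A gene with several starts counted where any of them had a match. The NRF1 stretch GCATGCGC lay in 7 of 64 members (10.9%), against 2.56% of 27025 RefSeq genes and 5.39% of the 8311 genes of the table with a promoter. It was in 5 of the 17 called members with a promoter and in 2 of the 47 others. CCGGAAG, the ETS stretch, was in 12 of 64 (18.8%), against 7.83% and 17.2% in the same sets. It was in 6 of the 17 called members and in 6 of the 47 others. AAGATGGCG, known for the factor YY1, was in 2 of 64 members (0 of the 17 called) and 1.64% of the genes of the table with a promoter. TCAAGGTCA, known for the nuclear receptor Esrra, was in 1 of 64 members (0 of the 17 called) and 0.301% of these genes of the table. AGATAAG, the stretch of the erythroid factor Gata1, was in 0 of 64 members and 2.12% of these genes of the table. A match is a description of letters only.

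The 150 bases before the start are given 5′ to 3′ on the strand of each gene, with matches in capitals: GCATGCGC in *Atp5k* and *Ndufa11*, where matches on both strands overlap, and CCGGAAG or its reverse complement CTTCCGG in *Uqcr11*, *Cox6a1* and *Uqcrh*. *Cox6b2*, which had the largest fold change, held none of these in the printed stretch. The stretches are chr5:108434400-108434549 (minus strand) for *Atp5k*, chr17:56717612-56717761 (plus strand) for *Ndufa11*, chr10:80406822-80406971 (minus strand) for *Uqcr11*, chr5:115348959-115349108 (minus strand) for *Cox6a1*, chr4:116075071-116075220 (minus strand) for *Uqcrh* and chr7:4753095-4753244 (minus strand) for *Cox6b2*.
Atp5k: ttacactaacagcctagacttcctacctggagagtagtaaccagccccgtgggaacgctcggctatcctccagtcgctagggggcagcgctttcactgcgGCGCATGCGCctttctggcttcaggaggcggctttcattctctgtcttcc
Ndufa11: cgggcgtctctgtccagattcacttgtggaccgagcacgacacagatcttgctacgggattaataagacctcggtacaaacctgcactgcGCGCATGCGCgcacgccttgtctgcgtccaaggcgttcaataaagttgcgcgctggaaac
Uqcr11: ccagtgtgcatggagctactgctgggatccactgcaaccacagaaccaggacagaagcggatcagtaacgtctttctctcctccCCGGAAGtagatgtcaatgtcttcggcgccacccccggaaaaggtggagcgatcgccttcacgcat
Cox6a1: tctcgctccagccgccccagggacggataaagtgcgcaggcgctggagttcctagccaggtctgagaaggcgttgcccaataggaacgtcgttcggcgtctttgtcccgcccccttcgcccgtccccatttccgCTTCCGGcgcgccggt
Uqcrh: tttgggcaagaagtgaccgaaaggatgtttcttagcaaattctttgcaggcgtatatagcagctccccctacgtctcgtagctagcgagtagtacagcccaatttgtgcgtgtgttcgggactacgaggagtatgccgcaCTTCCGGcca
Cox6b2: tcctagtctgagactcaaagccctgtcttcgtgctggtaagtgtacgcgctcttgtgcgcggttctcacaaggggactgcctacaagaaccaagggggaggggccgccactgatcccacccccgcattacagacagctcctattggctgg

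In complex I, NADH dehydrogenase, 6 of 36 genes were higher and all 6 are accessory subunits by name, that is, subunits outside the catalytic core. *Ndufa1*, an X-linked subunit of the membrane arm, had 365, 238, 251.6, 271 and 377 in the AIWG-P mice, against 193, 191, 209, 299 and 171 in the AIWG-R mice. P1 and P8 were highest and R8 lay among the AIWG-P values (log2 fold change 0.50 ± 0.17 SE, limma *p* = 0.0103, exact permutation *p* = 0.0397). *Ndufb6*, a subunit of the membrane arm, had 58.0, 58.9, 65.6, 49.5 and 62.8 in the AIWG-P mice, against 37.6, 49.2, 37.4, 40.1 and 50.8 in the AIWG-R mice. Only P7 fell below an AIWG-R mouse, R9 (log2 fold change 0.45 ± 0.13, limma *p* = 0.00509, exact permutation *p* = 0.0159), and P8 was not the highest mouse. *Ndufa6*, which binds the mitochondrial acyl carrier protein, had 328, 255, 219, 259 and 353 in the AIWG-P mice, against 207, 228, 208, 198 and 193 in the AIWG-R mice. Its AIWG-R values spanned 193 to 228 and P5 alone fell among them (log2 fold change 0.43 ± 0.12, limma *p* = 0.00394, exact permutation *p* = 0.0159).

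*Ndufa11*, whose promoter is printed above, averaged 133 ± 36.1 in AIWG-P and 99.9 ± 9.75 in AIWG-R (SD, n = 5 each; log2 fold change 0.37 ± 0.16, limma *p* = 0.0329, exact permutation *p* = 0.0556). *Ndufa13*, also known as GRIM-19, averaged 311 ± 70.7 in AIWG-P and 239 ± 13.1 in AIWG-R (SD, n = 5 each; log2 fold change 0.36 ± 0.13, limma *p* = 0.0168, exact permutation *p* = 0.0159). *Ndufa4* had 354, 281, 264, 326 and 567 in the AIWG-P mice, against 247, 254, 228, 328 and 238 in the AIWG-R mice (log2 fold change 0.42 ± 0.18, limma *p* = 0.0346, exact permutation *p* = 0.0635). P8 was far above the other mice and R8 passed all AIWG-P mice but P1 and P8. The calls of these genes ended when single mice were left out: *Ndufa4* without P1, P8, R1, R2, R4 or R9 (0.25 without P8), *Ndufa11* without P7, P8, R4, R8 or R9 (0.23 without P8) and *Ndufa13* without P1 or P8 (0.24 without P8). *Ndufa1*, *Ndufb6* and *Ndufa6* stayed called without any single mouse.

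The 7 measured core subunits, which carry the flavin and the iron-sulfur clusters, had a median log2 fold change of 0.03 and 0 calls. That median is near the -0.01 of all genes. The 29 other complex I genes had a median of 0.25 and 6 calls. Coding lengths ran from 636 to 2181 bases in the core and from 210 to 1404 in the other 29. The parts of subunit role and of length in this contrast were not tested. *Ndufs8*, a core iron-sulfur subunit, was the highest of the core at 0.32 ± 0.17 (SE, limma *p* = 0.077, exact permutation *p* = 0.143), and *Ndufv1*, which binds NADH, was the lowest at -0.04. *Ndufs1*, the largest core subunit, had 277, 247, 256, 268 and 171 in the AIWG-P mice, against 242, 229, 272, 238 and 254 in the AIWG-R mice. P8, the highest mouse in most members, was the lowest mouse here. *Ndufa10*, an accessory subunit, did not reach the fold threshold but separated the cohorts, with 222, 196, 186, 211 and 259 in the AIWG-P mice, against 185, 182, 174, 183 and 176 in the AIWG-R mice (log2 fold change 0.25 ± 0.09, exact permutation *p* = 0.00794, the smallest that this test can give with 5 mice against 5). Its lowest AIWG-P mouse, P5, lay just above its highest AIWG-R mouse, R1. The 30 complex I genes without a call ranged from -0.05 for *Ndufb7* to 0.41 for *Ndufa5*.

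In complex II, succinate dehydrogenase, 0 of 4 genes passed the test in either direction. *Sdha*, the flavoprotein that oxidizes succinate, had 778, 892, 887, 824 and 745 in the AIWG-P mice, against 744, 875, 876, 806 and 851 in the AIWG-R mice (log2 fold change -0.01 ± 0.08, limma *p* = 0.907, exact permutation *p* = 0.889). The cohorts overlapped throughout, and P1 and P8, high in most members, were among the lowest mice. *Sdhb*, the iron-sulfur subunit, averaged 243 ± 32.8 in AIWG-P and 221 ± 10.7 in AIWG-R (SD, n = 5 each), with a log2 fold change of 0.13 ± 0.10 (limma *p* = 0.204, exact permutation *p* = 0.198). The membrane anchors *Sdhc* and *Sdhd* had log2 fold changes of 0.11 ± 0.12 (limma *p* = 0.371, exact permutation *p* = 0.397) and 0.16 ± 0.10 (limma *p* = 0.133, exact permutation *p* = 0.151). The median of the 4 was 0.12, and it was -0.02 with values rescaled to the sum without globins, relative to -0.15 for all genes.

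In complex III, ubiquinol-cytochrome c reductase, 3 of 8 genes were higher and all 8 were positive, with a median log2 fold change of 0.28. *Uqcr11*, its smallest subunit, had 162, 124, 132, 121 and 203 in the AIWG-P mice, against 118, 119.8, 102, 102 and 103 in the AIWG-R mice (log2 fold change 0.42 ± 0.14, limma *p* = 0.00963, exact permutation *p* = 0.00794). The cohorts did not overlap, although P7 and R2 were nearly equal. *Uqcrc2*, core protein 2 of the complex, had 454, 460.4, 451, 498 and 525 in the AIWG-P mice, against 347, 431, 434, 436 and 368 in the AIWG-R mice (log2 fold change 0.25 ± 0.09, limma *p* = 0.0154, exact permutation *p* = 0.00794). It separated the cohorts without reaching the fold threshold. *Uqcr11*, *Uqcrc2* and *Ndufa10* were the 3 members whose AIWG-P values all lay above the AIWG-R values, and 0 lay below, where 1.11% of all genes lay above and 1.44% below.

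*Uqcrb*, a small subunit near the ubiquinone-binding site, had 129, 145, 109, 145 and 240.4 in the AIWG-P mice, against 97.6, 117, 91.8, 114 and 110.4 in the AIWG-R mice (log2 fold change 0.48 ± 0.17, limma *p* = 0.0152, exact permutation *p* = 0.0317). P8 stood well apart from the other AIWG-P mice, and P5 lay among the AIWG-R mice. *Uqcrh*, the hinge protein that joins cytochrome c1, averaged 923 ± 207 in AIWG-P and 686 ± 77.8 in AIWG-R (SD, n = 5 each; log2 fold change 0.41 ± 0.14, limma *p* = 0.00968, exact permutation *p* = 0.0159). Without P8, none of the 3 genes was called, at log2 fold changes of 0.31 for *Uqcrb*, 0.30 for *Uqcr11* and 0.29 for *Uqcrh*, all just below the fold threshold. The other 4 genes ranged from 0.15 for *Uqcrfs1*, the Rieske iron-sulfur protein, to 0.30 for *Uqcr10*.

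In complex IV, cytochrome c oxidase, 6 of 12 genes were higher and all 12 were positive, under every scaling tried, with a median of 0.33. *Cox6b2*, known as the testis isoform of subunit 6B, had the largest log2 fold change of all 75 genes, with 208, 134, 121, 104 and 168 in the AIWG-P mice, against 119, 90.3, 63.3, 118 and 48.9 in the AIWG-R mice (log2 fold change 0.77 ± 0.25, limma *p* = 0.0087, exact permutation *p* = 0.0397). P1, not P8, was highest, and P7 fell below R1 and R8. Its partner *Cox6b1*, the isoform of most tissues, had 369.9, 274, 294, 312 and 492 in the AIWG-P mice, against 269, 283, 255, 296 and 275 in the AIWG-R mice (log2 fold change 0.30 ± 0.14, limma *p* = 0.0444, exact permutation *p* = 0.0556). It did not reach the fold threshold, and P3 and P5 lay among the AIWG-R mice.

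*Cox7a2*, the isoform of subunit 7A outside muscle, had 273, 199.7, 202, 249 and 309.5 in the AIWG-P mice, against 192, 164, 145, 208 and 140.5 in the AIWG-R mice (log2 fold change 0.53 ± 0.15, limma *p* = 0.00301, exact permutation *p* = 0.0238). P3 and P5 lay between R1 and R8, and the other AIWG-P mice above both. *Cox7a2l*, which helps join complexes III and IV into supercomplexes, averaged 1359 ± 253 in AIWG-P and 1156 ± 75.9 in AIWG-R (SD, n = 5 each; log2 fold change 0.22 ± 0.11, limma *p* = 0.0778, exact permutation *p* = 0.119). *Cox6a1*, the isoform of subunit 6A outside heart and muscle, had 1088, 718, 744, 719 and 1068 in the AIWG-P mice, against 656, 659.7, 608, 743 and 493 in the AIWG-R mice (log2 fold change 0.44 ± 0.15, limma *p* = 0.00994, exact permutation *p* = 0.0238). P1 and P8 were high and the other 3 AIWG-P mice lay at the level of R8. *Cox6c* was likewise highest in P8 and P1, with 909, 742, 645, 731 and 1101 in the AIWG-P mice, against 625, 612, 514, 752 and 466 in the AIWG-R mice (log2 fold change 0.47 ± 0.15, limma *p* = 0.0096, exact permutation *p* = 0.0317).

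*Cox7b* and *Cox8a*, further small structural subunits, had log2 fold changes of 0.44 ± 0.15 (limma *p* = 0.0128, exact permutation *p* = 0.0397) and 0.36 ± 0.13 (limma *p* = 0.0143, exact permutation *p* = 0.0556). *Cox8a* lost its call without P1, P8 or R9, at 0.28 without P8, while the other 5 called genes of the complex kept theirs without any single mouse. *Cox4i1*, the general isoform of the regulatory subunit 4, averaged 836 ± 156 in AIWG-P and 719.5 ± 63.9 in AIWG-R (SD, n = 5 each), with a log2 fold change of 0.20 ± 0.12 (limma *p* = 0.105, exact permutation *p* = 0.151). The 6 genes without a call ranged from 0.18 for *Cox5a* to 0.30 for *Cox6b1*. *Cox4i2*, *Cox6a2*, *Cox7a1*, *Cox7b2*, *Cox8b* and *Cox8c*, the tissue isoforms, were not analysed here.

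**Figure D3:**
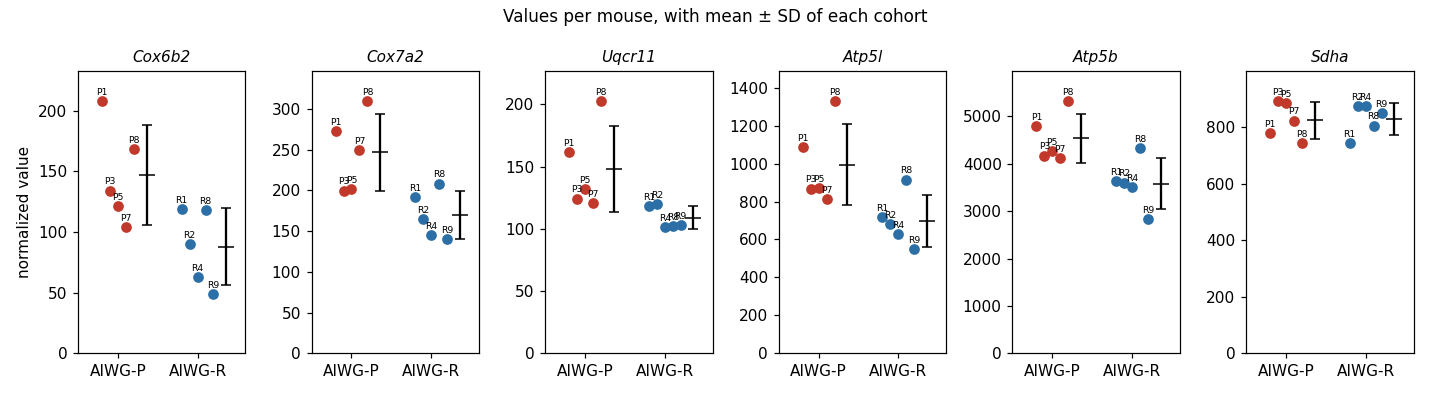
Normalized value in each mouse of 6 genes, with the mean and SD of each cohort as bars and every axis of values starting at 0. *Uqcr11* separates the 5 AIWG-P mice from the 5 AIWG-R mice, *Cox6b2*, *Cox7a2*, *Atp5l* and *Atp5b* overlap mainly through R8 or R1, and *Sdha* overlaps throughout.

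In complex V, ATP synthase, 4 of 15 genes were higher and 14 were positive, with a median of 0.22. *Atp5l*, subunit g, had 1089, 868, 872, 815 and 1329 in the AIWG-P mice, against 719.9, 681, 631, 915 and 547 in the AIWG-R mice (log2 fold change 0.50 ± 0.15, limma *p* = 0.00574, exact permutation *p* = 0.0317). R8 lay above P3, P5 and P7, and the other AIWG-R mice below all AIWG-P mice. *Atp5k*, subunit e, which with subunit g holds ATP synthase dimers together, had 175, 145, 139, 144 and 209 in the AIWG-P mice, against 98.7, 105, 128, 145 and 103 in the AIWG-R mice (log2 fold change 0.48 ± 0.14, limma *p* = 0.00469, exact permutation *p* = 0.0317). Its promoter carries the NRF1 stretch printed above, and again R8 alone reached the AIWG-P range. *Atp5b*, the catalytic beta subunit, had 4799.8, 4170.0, 4266, 4119 and 5319.7 in the AIWG-P mice, against 3634, 3602, 3498, 4330.0 and 2826 in the AIWG-R mice (log2 fold change 0.35 ± 0.12, limma *p* = 0.0104, exact permutation *p* = 0.0317). R8 passed P3, P5 and P7, and R9 was the lowest mouse.

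*Atp5h*, subunit d of the peripheral stalk, averaged 820.5 ± 199 in AIWG-P and 641 ± 102 in AIWG-R (SD, n = 5 each; log2 fold change 0.34 ± 0.15, limma *p* = 0.0473, exact permutation *p* = 0.119). Its call ended without P1, P8, R2, R4 or R9 (0.23 without P8) and under quantile normalization (0.33), and that of *Atp5b* ended when P8 or R9 was dropped (0.27 without R9) and when values were quantile normalized (0.14). *Atp5l* and *Atp5k* kept theirs without any single mouse. Of the genes for subunit c, the ring that turns, *Atp5g1* had a log2 fold change of 0.28 ± 0.14 (limma *p* = 0.0601, exact permutation *p* = 0.0794) and *Atp5g3* of 0.08 ± 0.09 (limma *p* = 0.369, exact permutation *p* = 0.333), while *Atp5g2* was not analysed here. The 5 genes of the F1 head and stalk had a median of 0.20 and 1 call, and the 9 of the membrane part and peripheral stalk a median of 0.25 and 3 calls. *Atp5sl*, the gene matched by symbol only, was the lowest of all 75, at -0.18 ± 0.09 (limma *p* = 0.0778, exact permutation *p* = 0.0476), with 322, 316, 249, 288 and 346 in the AIWG-P mice, against 359, 357, 317, 355 and 328 in the AIWG-R mice. P1 and P8 lay within the AIWG-R range, and it was the only member called lower under any scaling tried.

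Red cell genes, with the deposited scaling, were higher in AIWG-P alongside the members. Of 21 measured genes for red cell membrane and cytoskeletal proteins, 13 were higher and 0 lower in AIWG-P, with a median log2 fold change of 0.54. Of all genes, 4.06% were higher and 3.23% lower. The summed level of the 21 ranged from 44692 to 72332 in AIWG-P and from 29859 to 60489 in AIWG-R. Most of this sum came from *Epb4.1*, which was not called (log2 fold change 0.37 ± 0.20, limma *p* = 0.0915, exact permutation *p* = 0.135). None of the 4 globin genes passed the test, with a median of 0.47. With this list's mean added to the fit as a covariate, 1 of the 75 members was higher, *Ndufb6* at 0.52, and 0 were lower, where 1.31% of all genes were higher and 2.31% lower. The median of the members was then 0.15 against -0.01 for all genes, and 70 of 75 stayed positive against 48.7% of all genes. *Cox6b2* moved most, to 0.10, and *Cox7b* lay at 0.06, *Atp5b* at 0.09 and *Atp5h* at 0.04, while *Uqcrb* lay at 0.46 and *Ndufa6* at 0.33. The median of complex IV was 0.14 in this fit and that of complex III 0.22. The list mean differs between the cohorts itself, so the covariate and the cohort share part of what they describe, and the part of red cells in the members' difference was not tested beyond this fit.

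**Figure D4:**
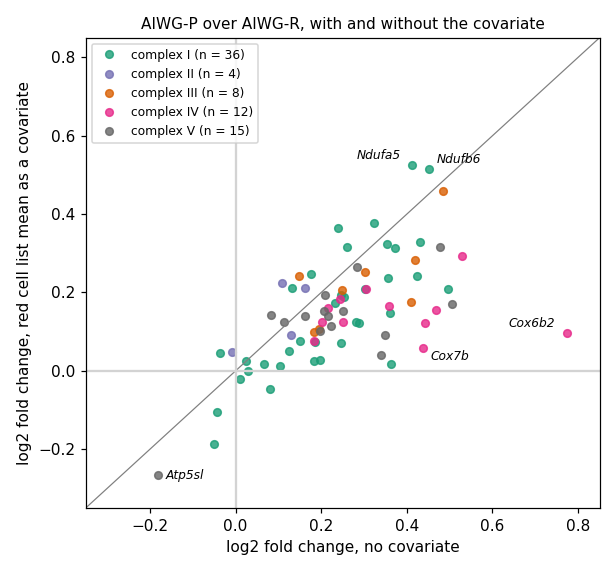
Log2 fold change of each member, AIWG-P over AIWG-R, without a covariate (x axis) and with a covariate, the red cell list mean (y axis), coloured by complex, with the line of equality. Most genes of complexes I, III, IV and V lie below the line, and most of complex II above it. *Cox6b2* lies farthest below, at 0.77 without and 0.10 with the covariate.

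Few markers of other blood cells passed the test. Of all genes, 4.06% were higher and 3.23% lower, and at these shares lists this short hold few calls. Of 10 neutrophil markers 1 was higher (*Ngp*, a granule protein), but 9 were positive with a median log2 fold change of 0.26, about that of the members. Their summed level was 10869 to 15560 in AIWG-P and 9028 to 20041 in AIWG-R, and it was highest in R1, an AIWG-R mouse. Of 7 NK cell markers 1 was lower (*Ncr1*, a natural cytotoxicity receptor), with a median of -0.01 and summed levels of 1219.8 to 1681 in AIWG-P and 1265 to 1656 in AIWG-R. None of 10 monocyte, 10 B cell, 10 T cell and 9 platelet markers passed the test, with medians of 0.11, -0.07, 0.09 and 0.04. Summed levels ran from 14792 to 20983 in AIWG-P and 13179 to 17336 in AIWG-R for monocytes, most of it from *Lyz2*. For B cells they ran from 27489 to 31555 in AIWG-P and 27702 to 32555 in AIWG-R. For T cells they ran from 6367 to 8933 in AIWG-P and 6687 to 7936 in AIWG-R. P8, the highest mouse in most members, was also the highest mouse in 7 of the 9 platelet markers. P3, near the AIWG-R level in the members, was the lowest in all 9. This was not particular to platelets, since P8 was highest in 8 and P3 lowest in 6 of the 10 T cell markers. P8 was also highest in all 4 globin genes. Of 10 B cell markers, P8 was the highest mouse in 3 and the lowest in 4. Of 10 monocyte markers, it was the highest in 1 and the lowest in 4. Platelet markers summed to 13008, 5256, 10689, 13608 and 18906 in the AIWG-P mice, against 12913, 9352, 10093, 13848 and 10071 in the AIWG-R mice. Their part, and that of the other cell types, in the members' difference was not tested.

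Other mitochondrial genes were read from the same fit, where 4.06% of all genes were higher and 3.23% lower. At these shares lists of this size hold few calls. Of 44 measured assembly factors, the proteins that build the complexes without staying in them, 0 passed the test in either direction and the median log2 fold change was 0.03. The smallest *p* values belonged to *Tmem242*, an assembly factor of ATP synthase, at 0.26 ± 0.11 (limma *p* = 0.0304, exact permutation *p* = 0.0159), and *Coa3*, one of complex IV, at 0.29 ± 0.13 (limma *p* = 0.0458, exact permutation *p* = 0.0794). A further list outside the symbol rule held 9 genes, not all of them subunits or electron carriers. They were *Ndufab1*, *Cyc1*, *Cycs*, *Etfa*, *Etfb*, *Etfdh*, *Higd1a*, *Higd2a* and *Minos1*. Of these 0 passed, but all 9 were positive with the deposited scaling, with a median of 0.22. *Cycs*, cytochrome c itself, was at 0.31 ± 0.13 (limma *p* = 0.0358, exact permutation *p* = 0.0714) and *Higd2a* at 0.26 ± 0.12 (limma *p* = 0.0548, exact permutation *p* = 0.0635).

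Of 20 genes of the TCA cycle and pyruvate dehydrogenase, 1 was higher and 0 lower, with a median of 0.05. It was *Mpc2*, a part of the mitochondrial pyruvate carrier, with 402, 337, 281, 262 and 416 in the AIWG-P mice, against 285, 245, 209, 223 and 149.9 in the AIWG-R mice (log2 fold change 0.62 ± 0.17, limma *p* = 0.00333, exact permutation *p* = 0.0238). R1 lay within the AIWG-P range and the other AIWG-R mice below it. In the fit with the red cell covariate, *Mpc2* lay at 0.21 and was not called. Of 31 carriers, porins and import genes 1 was higher and 0 lower, with a median of 0.12. This was *Slc25a37*, mitoferrin of erythroid cells, at 0.58 ± 0.22 (limma *p* = 0.0201, exact permutation *p* = 0.0794) without and -0.00 with the red cell covariate. Of 15 genes for mitochondrial biogenesis and mitochondrial DNA expression 0 passed, with a median of -0.01. The smallest *p* values were those of *Nrf1*, the regulator whose site is described above, at 0.14 ± 0.10 (limma *p* = 0.191, exact permutation *p* = 0.246), and *Ssbp1*, which binds single-stranded mitochondrial DNA, at -0.15 ± 0.11 (limma *p* = 0.21, exact permutation *p* = 0.222).

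Most members higher in AIWG-P have a short coding sequence. Their longest coding length had a median of 309 bases, against 505.5 bases in the 56 other members. Of 34 members of up to 400 bases 15 were higher, with a median log2 fold change of 0.36, and of 20 members of over 400 and up to 600 bases 3 were, with a median of 0.19. Of 10 members of over 600 and up to 1000 bases 0 were higher (median 0.17), and of 11 longer members 1 was, *Atp5b* (median 0.11). The other genes of the table followed the same order by length. Of 452 other genes of up to 400 bases 11.9% were higher, with a median of 0.18, and of 772 genes of over 400 and up to 600 bases 7.90%, with a median of 0.12. The shares were 5.02% of 1893 genes of over 600 and up to 1000 bases (median 0.07) and 2.60% of 6842 longer genes (median -0.06). How length bears on the difference was not tested. The median of the members exceeded that of the other genes in each of the 4 classes.

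**Figure D5:**
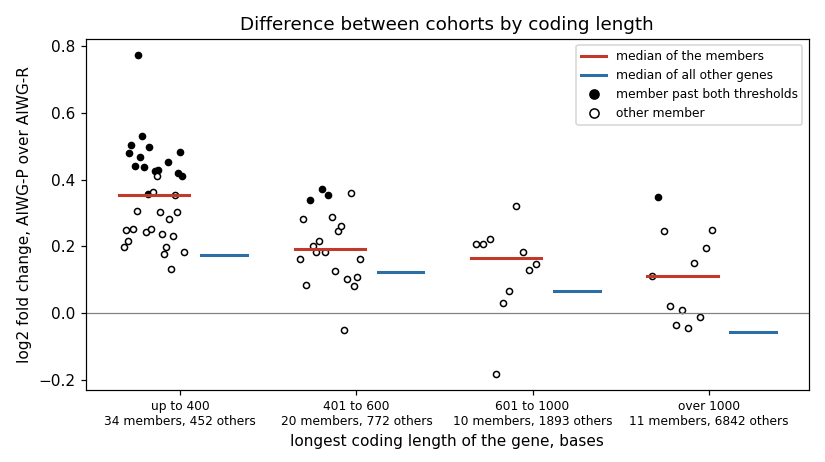
Log2 fold change of the members, AIWG-P over AIWG-R, in 4 classes of longest coding length in bases (points, filled where past both thresholds), with their median in each class and the median of all other genes as lines. The medians of the members run from 0.36 in the shortest class to 0.11 in the longest, and those of the other genes from 0.18 to -0.06.

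Several members share sequence or position with other genes, and the sources used here do not state whether reads were counted by strand. Another annotated gene overlaps 34 of the 75 members and 8 of the 19 higher ones, which are *Ndufb6*, *Ndufa11*, *Ndufa13*, *Uqcrb*, *Uqcrh*, *Cox6c*, *Atp5l* and *Atp5b*. *Atp5b* hosts small nucleolar and micro RNAs on its own strand. Processed pseudogenes exist for several members, among them *Atp5l*, *Uqcrh* and *Atp5k*, and the values of these genes are uncertain where reads could be shared.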

How the data were processed

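Whole-blood RNA of 10 mice was sequenced from TruSeq libraries. The authors mapped reads with Bowtie2 and counted them per gene with RSEM, and the processing notes name mm9 and limma. Neither versions nor strandedness are given in the sources used here. Deposited was 1 normalized signal value per gene and mouse, and how the authors scaled it is not stated. Its columns of the authors' cohort means, fold changes, *p* values and q values were not used, and 0 columns of values per mouse were left out. The values of a mouse are within 0.02 of whole multiples of 1 step. They were treated as normalized values, since these multiples could not be shown to be reads.

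Values were compared as log2(value + 1) in genes above 1 in at least 5 mice (10429 of 10431) in limma 3.58.1 (R 4.3.3), using a mean-variance trend and no covariate, so fold changes are on that scale and slightly understate low genes. A call was an unadjusted *p* under 0.05 with a change of over 1.25-fold in either direction, and *p* values were adjusted by Benjamini-Hochberg over all genes. An exact permutation test, two-sided over 252 splits, was added for single members (smallest *p* 0.00794). The fit was tested on simulated data. Members and lists were chosen with earlier results of these data known. The text names every member past both thresholds or without overlap between cohorts, the 3 smallest *p* of each complex, all *Sdh* genes, the subunit c genes, complex IV isoforms, and in each other list the called genes or the 2 smallest *p*. Others named to give a range were chosen after their values were seen. Coding lengths came from the GENCODE annotation of GRCm38 (10034 genes with a length), and promoters from RefSeq. Alternatives were other scalings, filters, thresholds and covariates, and leaving out mice. Python 3.11.15, pandas 2.3.3 and numpy 2.4.6 were used for annotation.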

Additional observations from a re-analysis of the deposited data

Results flagged for a closer look

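In 74 groups of 5 mice, single members and means of a complex within a cohort, 4 had an extreme mouse farther from its neighbour than Dixon's 95% critical value of 0.71 for 5 samples allows, and chance gives about 1 in 20 such groups. In AIWG-P, P8 had a *Uqcrb* value of 240.4, where the next mouse had 145.1. P8 also had a mean log2 value of complex III of 8.41, where the next AIWG-P mouse had 8.01. In AIWG-R, R8 had an *Ndufa4* value of 327.6, where the next mouse had 253.9. R8 also had the lowest *Sdhc* value of its cohort, 117.1, where the next mouse had 139.5.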

How the results depend on the processing

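No called member changed sign under any alternative run. Among named members without a call, *Sdhb* (-0.01), *Sdhc* (-0.03) and *Atp5g3* (-0.06) turned negative with library size without globins, as did the median of complex II, *Sdhc* with only label number 4 (-0.02) and *Atp5g1* with the replicate block (-0.02), and *Sdha*, at -0.01, turned slightly positive in 7 alternatives (0.01 to 0.05). Of the values of single named members under the alternatives, 618 kept their side of the thresholds, 87 lost a call and 13 gained one. Those kept include the fold under 0.75 for lower genes, which could not change a named member, since 0 were lower in that fit. For the 4 counts that lead the results, 423 higher and 337 lower genes and 19 higher and 0 lower members, the values that moved by over 1.5 times were as follows, and the cause was not tested. With library size without globins they were 162 and 1212 genes and 7 and 1 members. With the red cell list mean as a covariate 137 genes and 1 member were higher, and with no fold threshold 702 genes were higher and 638 lower. With a mean above 100 they were 271 higher and 163 lower of 6430 genes tested. With a fold under 0.75 for lower genes 196 were lower. Without P8 and R9, 178 genes were higher and 188 lower, and 5 members were higher. With only label number 4, 164 genes were lower. Leaving out 1 mouse at a time gave 265 (without R9) to 563 (without P3 or P5) higher genes, 228 (without P8) to 637 (without P3) lower genes and 602 without P5, 11 (without P8) to 27 (without P5) higher members, and a median of the members of 0.15 to 0.30. With the replicate block (numbers 1 and 8 occur in both cohorts) 770 genes were higher, 1006 lower and 33 members higher, the 19 among them. Only P1, R1, P8 and R8 inform the cohort difference in that fit, since every other number marks a single mouse. P1 and P8 exceeded every AIWG-R mouse in all 19, so these counts add no separate support for the calls. The mice of each pair share only a number, with correlations of their deviations of 0.12 for P1 and R1 and 0.33 for P8 and R8. The edgeR test on recovered reads was not run, since whole reads could not be shown, so depth per gene stayed unknown.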

Other observations

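Several mitochondrial genes outside the named rule were looked up after their values were seen. *Atpif1*, the inhibitor of ATP synthase, had 685, 415, 433, 459 and 729 in the AIWG-P mice, against 429, 376, 306, 456 and 256 in the AIWG-R mice. It was higher in AIWG-P (log2 fold change 0.57 ± 0.19 SE, limma *p* = 0.0113, exact permutation *p* = 0.0476), P1 and P8 were the highest mice, and in the fit with the red cell covariate its value was 0.13. *Usmg5*, which encodes a small ATP synthase subunit, was at 0.34 ± 0.19 (limma *p* = 0.0964, exact permutation *p* = 0.159).

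The ADP/ATP carrier *Slc25a5* and the phosphate carrier *Slc25a3*, which feed ATP synthase with its substrates, separated the cohorts in opposite directions. *Slc25a5* had 945, 888, 898, 969 and 1090.3 in the AIWG-P mice, against 741, 857, 851, 768 and 806 in the AIWG-R mice (log2 fold change 0.25 ± 0.08, exact permutation *p* = 0.00794), and *Slc25a3* had 1056, 978, 1028, 1037 and 1049 in the AIWG-P mice, against 1176, 1193, 1207, 1074 and 1154 in the AIWG-R mice (log2 fold change -0.17 ± 0.07, exact permutation *p* = 0.00794). Both *p* values are the smallest that this test can give. Neither gene reached the fold threshold, and in the fit with the red cell covariate they lay at 0.27 and -0.16.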
